A study of Oryza sativa Indica Group with 27 samples.

Results

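The conserved microRNA (miRNA) families miR159, miR164, miR169, and miR396, were followed in small RNA libraries of wild-type rice (WT, cultivar Nipponbare) during dehydration. Members were all entries of the deposited miRNA table whose name contains one of these family numbers. They made up 26 of 292 entries and 42 of 472 miRNA names, since identical mature miRNAs share an entry. Dehydration began when the liquid in which the seedlings grew was drained, and entire seedlings of the three-leaf stage were collected 1 and 6 h later and, without treatment, at 0 h. Times are given below as hours after treatment (HAT). None of these plants carried a transgene. The labels give the organism as the Indica group, although Nipponbare is a japonica cultivar, and the number of plants behind a library is not given in the sources used here. Each time point had 1 small RNA library. Differences between time points therefore have no replicate behind them, and a p-value for time is not given. The only untreated plants are those at 0 h. A change with time of day or handling therefore cannot be told apart from one with dehydration.

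Plant miRNAs guide an Argonaute protein to mRNAs with a nearly complementary site, and the mRNA is then cleaved or its translation is blocked. In plants, miR159 targets GAMYB-type MYB factors of gibberellin signaling and anther development, miR164 targets NAC factors of the CUC type that set organ boundaries, miR169 targets the NF-YA subunit of the nuclear factor Y complex, and miR396 targets growth-regulating factors (GRFs), which promote cell proliferation in young leaves. The families are known for their links to drought, nutrient, and growth responses in many species.

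Levels were given by the authors in RPM, reads per 1000000 of a library total. The RPM values of each library were whole multiples of 1 step, which gives the reads behind them, and all 292 values of each library came out whole within a tolerance of 0.001. The listed reads were 203276, 213459, and 129838 at 0, 1, and 6 HAT, so that 1 read was worth 4.92, 4.68, and 7.70 RPM at these times. The table also has columns for AP2 transgenic and Vandana plants, whose whole reads equal those of WT at each time in all 292 entries. In the 3 WT columns the total behind the RPM differed from the listed reads by 1 to 4 reads, whereas the totals of the other 6 columns exceeded the listed reads by 13463 to 270103 reads. The WT columns are therefore the ones described. Intervals below are exact 95% intervals for counting error alone, without adjustment for the number of entries, and reads amplified by PCR are not independent molecules. The mix of other miRNAs also shifted, since miR166a and the 5 names that share its entry took 36.3, 28.2, and 24.9% of the reads at 0, 1, and 6 HAT, and miR168a-3p took 16.9, 25.2, and 30.1%. The part of this shift in the RPM of the members was not tested beyond a second scaling, by the median ratio of the 102 entries with at least 10 reads in every library, which lowered every log2 change from 0 to 6 HAT by 0.06 and moved the changes from 0 to 1 HAT by -0.00034.

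The families differed widely in abundance. In each family sum, entries of one family with equal reads in all libraries were counted once. miR396 had 108744, 137523, and 109863 RPM at 0, 1, and 6 HAT, and miR159 had 24823, 22988, and 20634 RPM. miR169 had 2248, 3603, and 4929 RPM, and miR164 had 1402, 1616, and 1163 RPM. Together they took 13.7, 16.6, and 13.7% of the listed reads, most of which belonged to miR396. miR169 was thus the family with higher levels at each later time point, miR396 was highest at 1 HAT, miR159 was lower at each later time point, and miR164 stayed within counting error of its starting level at 1 and at 6 HAT.

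**Figure D1:**
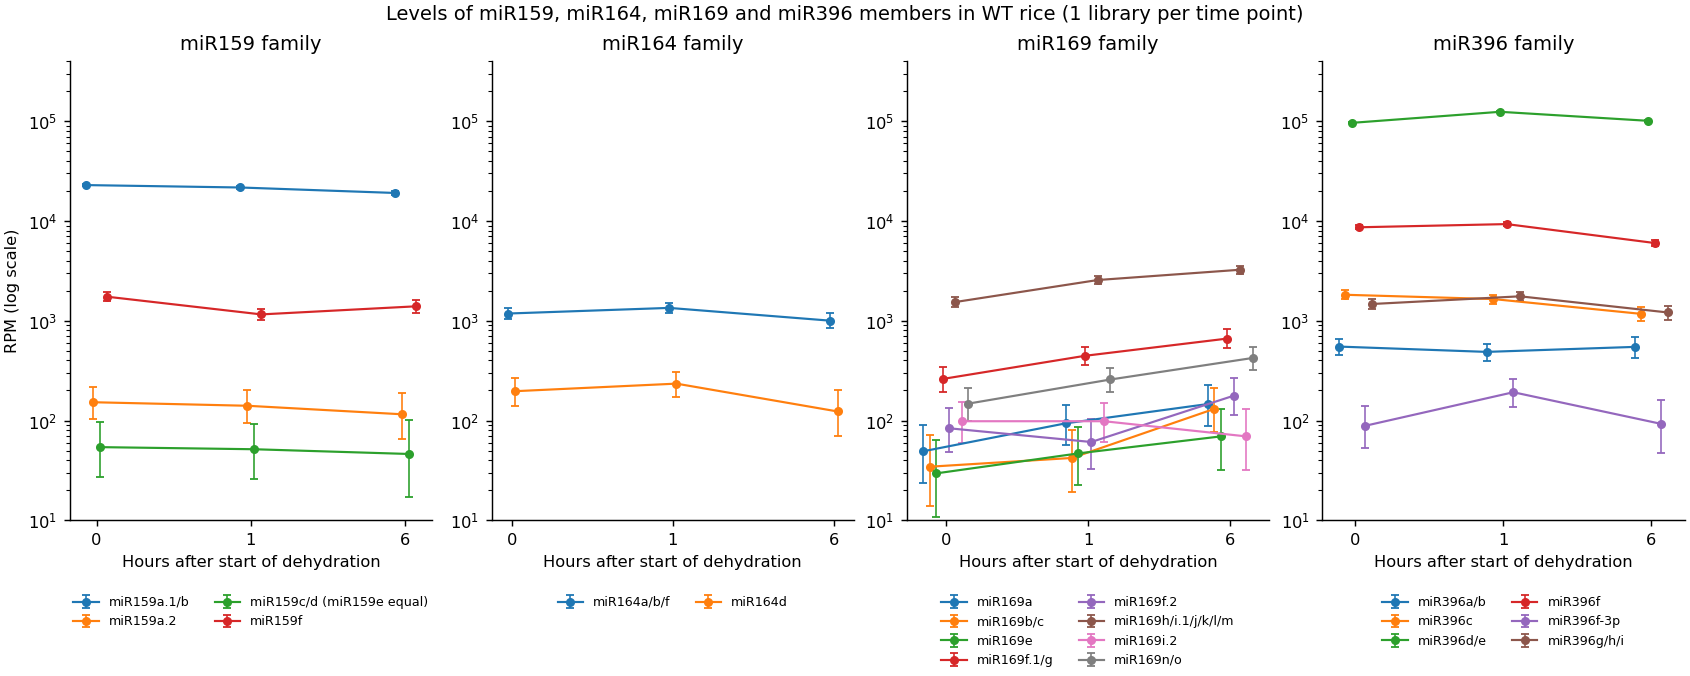
RPM (log axis) of the entries with at least 10 reads in at least 1 WT library against HAT (equally spaced), 1 panel per family and 1 library per time point. Bars are exact 95% counting intervals. The main miR396d/e entry lies between 96170 and 124120 RPM, and the main miR169 entry lies at 1540, 2558, and 3243 RPM.

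At 6 HAT, 6 of the 7 miR169 entries with at least 10 reads in 1 of the 2 libraries were at least 2-fold above 0 HAT. One of them, miR169b/c, met the read minimum only through the 6 HAT library, where it was high, and without it the count was 5 of 6. Over all miRNAs measured by the same rule, 18 of 123 entries (14.6%) were at least 2-fold higher and 4 (3.25%) at least 2-fold lower. With at least 10 reads required in both libraries, a condition added after the data were seen, 5 of 5 miR169 entries and 12 of 103 entries in all (11.7%) were at least 2-fold higher. That rule drops miR169i.2, the entry that was lower at 6 HAT (ratio 0.705), because it had 9 reads at 6 HAT. The count of 5 of 5 therefore adds nothing to 5 of 6. Of the 13 miR159, miR164, and miR396 entries with at least 10 reads in 1 of the 2 libraries, none was past 2-fold in either direction. Over the 7 miR169 entries the median log2 ratio of 6 to 0 HAT was 1.35, and over all 123 entries it was 0.06. Summed over the family, miR169 was 2.19-fold above 0 HAT at 6 HAT (interval 1.94 to 2.48) and 1.60-fold above it at 1 HAT (1.43 to 1.803). From 1 to 6 HAT the ratio was 1.37 (1.23 to 1.52).

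The most abundant miR169 entry joins 6 names, miR169h, i.1, j, k, l, and m, and held 68.5, 71.0, and 65.8% of the family's reads at 0, 1, and 6 HAT. It had 1540, 2558, and 3243 RPM, from 313, 546, and 421 reads. These intervals do not overlap between 0 HAT and either later time point. Its ratio to 0 HAT was 1.66 at 1 HAT (1.44 to 1.92) and 2.11 at 6 HAT (1.81 to 2.45), just past the 2-fold threshold.

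miR169f.1 and miR169g, which share an entry, had 261, 445, and 662 RPM. Their ratio to 0 HAT was 1.71 at 1 HAT (1.21 to 2.44) and 2.54 at 6 HAT (1.78 to 3.65). miR169n and miR169o, likewise in 1 entry, had 148, 258, and 424 RPM, and their ratio to 0 HAT was 1.75 at 1 HAT (1.10 to 2.82) and 2.87 at 6 HAT (1.81 to 4.64). In both entries, each later library had the higher value, as in the main entry.

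Less abundant members ran the same way with wider intervals. miR169a had 49.2, 93.7, and 146 RPM from 10, 20, and 19 reads, a ratio of 2.97 at 6 HAT (1.32 to 7.16). At 1 HAT its ratio was 1.90, short of 2-fold, and the interval reached below 1 (0.851 to 4.56). miR169b and miR169c had 34.4, 42.2, and 131 RPM from 7, 9, and 17 reads. Their ratio at 6 HAT was 3.802 (1.499 to 10.8), but with 7 reads at 0 HAT this entry had to lie past 2-fold to reach the read minimum at all. miR169e had 29.5, 46.8, and 69.3 RPM from 6, 10, and 9 reads, a ratio of 2.35 (0.747 to 8.02) that rests on fewer than 10 reads in either library and was not counted. miR169p had 1 read at 6 HAT and 0 in the other libraries, and miR169q had 1 read at 0 HAT and 0 in the others, so that no ratio was formed. A count of 0 allows up to 14.8, 14.1, and 23.1 RPM (3 reads) at 0, 1, and 6 HAT.

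Names such as miR169f.1 and miR169f.2 mark separate mature products of the same precursor. The second products of miR169f and miR169i were rare, and neither was above its 0 HAT level at 1 HAT. miR169f.2 had 83.6, 60.9, and 177 RPM from 17, 13, and 23 reads, with a ratio to 0 HAT of 0.728 at 1 HAT (0.325 to 1.59) and 2.12 at 6 HAT (1.08 to 4.22). miR169i.2 had 98.4, 98.4, and 69.3 RPM from 20, 21, and 9 reads, and its ratio at 6 HAT was 0.705 (0.282 to 1.62). Per 100 reads of miR169f.1/g in the same library there were 32.1 reads of miR169f.2 at 0 HAT (17.4 to 56.3), 13.7 at 1 HAT (7.03 to 24.5), and 26.7 at 6 HAT (16.1 to 42.8), and all these intervals overlap. miR169i.2 was the one miR169 entry with at least 10 reads in 1 of these libraries whose level at 6 HAT lay below that at 0 HAT. Inside each library, which removes any effect of scaling, there were 6.39, 3.85, and 2.14 reads of miR169i.2 per 100 reads of the entry that holds miR169i.1 at 0, 1, and 6 HAT. The intervals at 0 HAT (3.85 to 10.04) and 6 HAT (0.971 to 4.10) overlap slightly. At 6 HAT the ratio to 0 HAT of the entry that holds miR169i.1 was 2.11 (1.81 to 2.45). The interval for miR169i.2 (0.282 to 1.62) lay below it. For miR169f.2 and miR169f.1/g the intervals of the ratios to 0 HAT overlap at both later time points. Overlap does not show equal courses, and a direct test of either product against its partner was not run. With miR169f.2 and miR169i.2 left out, the family sum was 2066, 3443, and 4683 RPM, a ratio of 2.27 at 6 HAT (1.998 to 2.57).

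**Figure D2:**
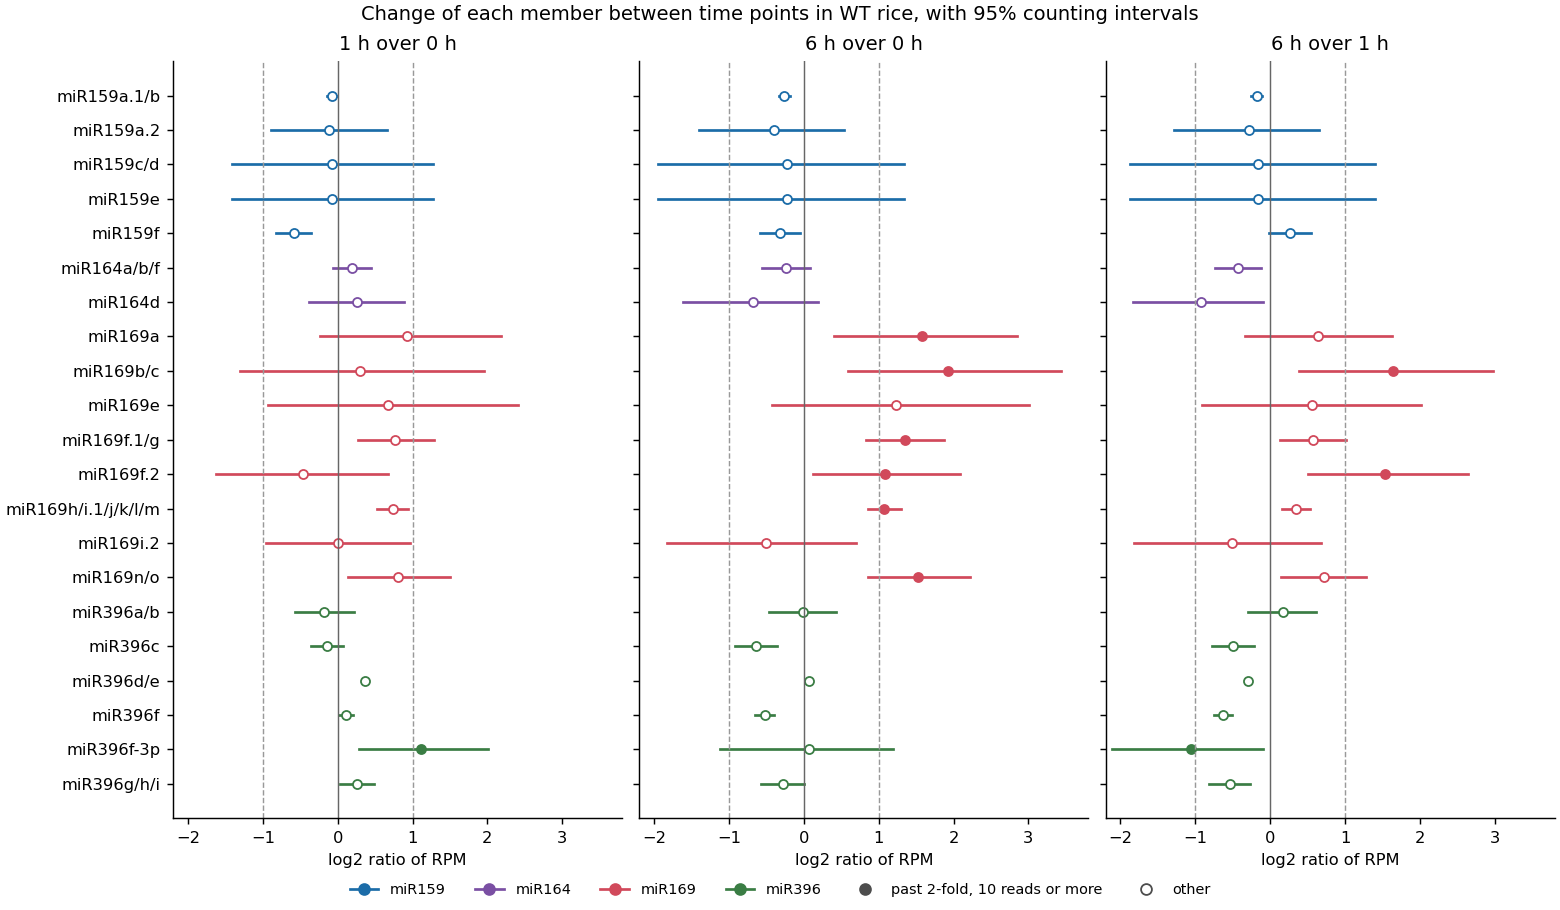
Log2 ratio of RPM between pairs of WT libraries for each entry with at least 10 reads in at least 1 library, with exact 95% counting intervals. Filled points are at least 2-fold apart with at least 10 reads in 1 of the 2 libraries. In the middle panel the 6 filled points all belong to miR169, and miR169i.2 lies at -0.51.

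At 1 HAT, 1 of 20 member entries was past 2-fold against 0 HAT, miR396f-3p, while 7 of 127 entries (5.51%) over all miRNAs were at least 2-fold higher and 5 (3.94%) at least 2-fold lower. From 1 to 6 HAT, 2 of 21 member entries were at least 2-fold higher, miR169b/c at 3.11-fold (1.31 to 7.91) and miR169f.2 at 2.91-fold (1.41 to 6.25), beside 12.7% of 126 entries. miR169b/c, with 9 reads at 1 HAT, again met the read minimum only through the library where it was high, and with at least 10 reads in both libraries 1 of 16 members was at least 2-fold higher, beside 13.2% of 106 entries. In the same interval miR396f-3p alone among the members was at least 2-fold lower, beside 1.59% of all entries. These 2 higher entries are 9.52% of the members that could be read and the lower one is 4.76%, and at 1 HAT the higher one is 5% of them. At a threshold of 1.5-fold in either direction, 7 of 20 members (6 higher) were past it from 0 to 1 HAT, beside 26% of all entries tested, 8 of 20 (6 higher) from 0 to 6 HAT, beside 36.6%, and 7 of 21 (4 higher) from 1 to 6 HAT, beside 35.7%. The miR169 entries that passed 2-fold over the whole 6 h had mostly reached 1.66- to 1.90-fold at 1 HAT, and miR169b/c and miR169f.2 were the exceptions.

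**Figure D3:**
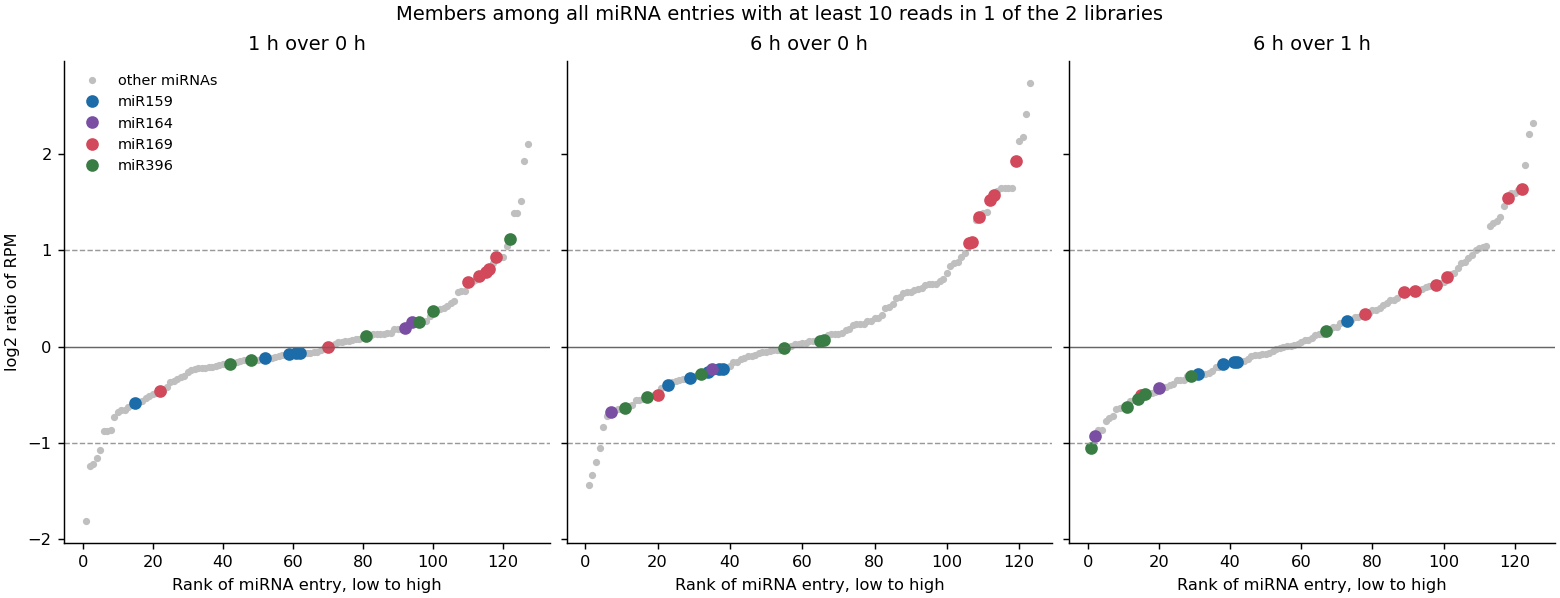
Log2 ratio of RPM for every miRNA entry with at least 10 reads in 1 of the 2 WT libraries compared, ordered from low to high, with members colored by family and dashed lines at 2-fold. From 0 to 6 HAT, 6 miR169 entries lie among the 18 highest of 123 entries. The right panel leaves out 1 entry with 0 reads in 1 library.

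miR396 contributed most of the members' reads. The entry of miR396d and miR396e had 96170, 124120, and 100806 RPM from 19549, 26494, and 13088 reads, the third most abundant entry at each time point. Its ratio to 0 HAT was 1.29 at 1 HAT (1.27 to 1.31) and 1.05 at 6 HAT (1.03 to 1.07). These intervals are narrow because of the number of reads and say nothing of the spread between plants. The level at 1 HAT was higher and the level at 6 HAT was close to the start.

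Of the other miR396 entries without the 3p suffix, miR396f and miR396c were lower at 6 HAT. miR396f had 8639, 9299, and 6008 RPM, a ratio of 1.08 at 1 HAT (1.01 to 1.15) and 0.695 at 6 HAT (0.638 to 0.757). miR396c had 1820, 1649, and 1171 RPM, and its ratio at 6 HAT was 0.643 (0.529 to 0.779). The entry of miR396g, miR396h, and miR396i had 1471, 1757, and 1209 RPM, with a ratio of 1.19 at 1 HAT (1.02 to 1.40) and 0.822 at 6 HAT (0.673 to 1.001), and was highest at 1 HAT like miR396d/e. miR396a and miR396b had 551, 487, and 547 RPM, and their ratio at 6 HAT was 0.993 (0.727 to 1.35). The 6 HAT levels of miR396f and miR396c lay below 0 HAT beyond counting error, though neither by 2-fold, and the intervals of miR396a/b and miR396g/h/i included 1.

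Within the same libraries, miR396f gave 8.98 reads per 100 reads of miR396d/e at 0 HAT (8.55 to 9.43), 7.49 at 1 HAT (7.15 to 7.84), and 5.96 at 6 HAT (5.54 to 6.41). The intervals do not overlap, and no scaling between libraries enters these values. For miR396c the values were 1.89 (1.70 to 2.10), 1.33 (1.19 to 1.48), and 1.16 (0.983 to 1.36) per 100 reads of miR396d/e. For miR396g/h/i they were 1.53 (1.36 to 1.71), 1.42 (1.27 to 1.57), and 1.1996 (1.02 to 1.404), and for miR396a/b 0.573 (0.471 to 0.690), 0.393 (0.321 to 0.476), and 0.542 (0.423 to 0.685), with overlapping intervals in both. Separate intervals that overlap do not show that values are equal, and no direct comparison was made. The share of miR396d/e in the family's reads was 88.4, 90.3, and 91.8% at 0, 1, and 6 HAT. How the authors assigned reads that match several of these closely related miRNAs is not given in the sources used here.

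The 3′ products of miR396 were rare. miR396f-3p had 88.5, 192, and 92.4 RPM from 18, 41, and 12 reads. Its ratio to 0 HAT was 2.17 at 1 HAT (1.22 to 4.01) and 1.04 at 6 HAT (0.459 to 2.29), and the ratio of 6 to 1 HAT was 0.481 (0.230 to 0.933). It was thus high at 1 HAT only, on few reads. Set against miR396f in the same library, it had 1.03 reads per 100 at 0 HAT (0.606 to 1.62), 2.07 at 1 HAT (1.48 to 2.81), and 1.54 at 6 HAT (0.792 to 2.70), and the intervals overlap. That overlap does not show equal values. miR396e-3p had 1, 4, and 4 reads, with a ratio at 6 HAT of 6.26 whose interval ran from 0.620 to 308.

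**Figure D4:**
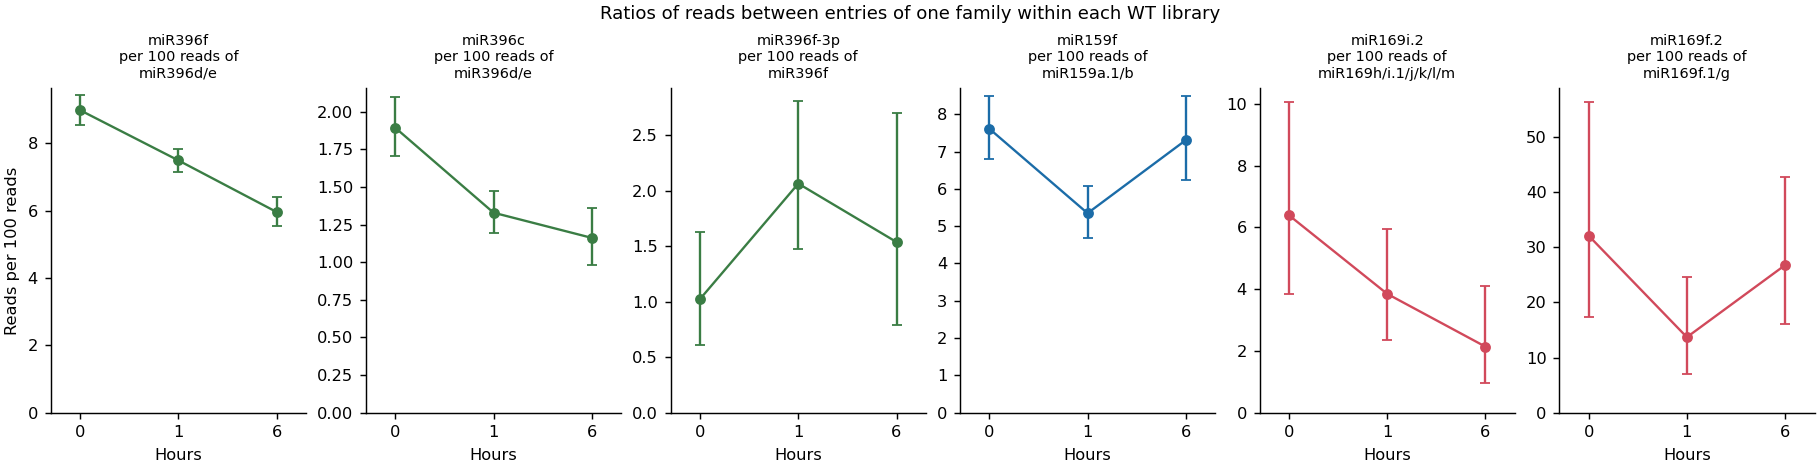
Reads of a minor entry per 100 reads of a major entry of the same family within each WT library at 0, 1, and 6 HAT, with exact 95% intervals. Each panel has its own axis from 0. miR396f lies at 8.98, 7.49, and 5.96 reads per 100 reads of miR396d/e, and miR159f at 7.61, 5.35, and 7.31 per 100 reads of miR159a.1/b.

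The main miR159 entries, miR159a.1/b and miR159f, were below their 0 HAT level at 1 and at 6 HAT, each by less than 2-fold. Their single intervals, not adjusted for the number of entries, exclude 1. In Fisher's exact test on reads, adjusted over all entries, miR159a.1/b at 6 HAT and miR159f at 1 HAT were called. In that test miR159a.1/b at 1 HAT and miR159f at 6 HAT were not called. The other 3 entries also had ratios under 1, with intervals that include 1, and over all miRNAs 71 of 127 entries were lower at 1 HAT and 56 of 123 at 6 HAT. The entry of miR159a.1 and miR159b, with 92.2 to 94.1% of the family's reads, had 22875, 21639, and 19078 RPM from 4650, 4619, and 2477 reads. Its ratio to 0 HAT was 0.946 at 1 HAT (0.908 to 0.985) and 0.834 at 6 HAT (0.794 to 0.876). miR159f had 1741, 1157, and 1394 RPM from 354, 247, and 181 reads, a ratio of 0.664 at 1 HAT (0.563 to 0.784) and 0.801 at 6 HAT (0.666 to 0.960). Its lowest value was at 1 HAT, but the ratio of 6 to 1 HAT was 1.205 with an interval that includes 1 (0.989 to 1.47). For miR159a.1/b this ratio was 0.882 (0.839 to 0.926).

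Per 100 reads of miR159a.1/b in the same library there were 7.61 reads of miR159f at 0 HAT (6.81 to 8.48), 5.35 at 1 HAT (4.69 to 6.08), and 7.31 at 6 HAT (6.25 to 8.50). The interval at 1 HAT overlaps neither of the others. miR159a.2, a second product of the miR159a precursor, had 153, 141, and 116 RPM from 31, 30, and 15 reads, and its intervals at both later time points included a ratio of 1. The entry of miR159c and miR159d and the entry of miR159e had the same reads in every library, namely 11, 11, and 6, and were counted once in the family sum, since the same reads may have been listed for both. The family sum was 0.926 of its 0 HAT level at 1 HAT (0.890 to 0.963) and 0.831 of it at 6 HAT (0.793 to 0.871).

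miR164 was the least abundant of the families at each time point. The entry of miR164a, miR164b, and miR164f had 1181, 1345, and 1001 RPM from 240, 287, and 130 reads, and its ratio to 0 HAT was 1.14 at 1 HAT (0.956 to 1.36) and 0.848 at 6 HAT (0.680 to 1.05). miR164d had 197, 234, and 123 RPM from 40, 50, and 16 reads, with a ratio at 6 HAT of 0.626 (0.327 to 1.14). Against 1 HAT, the level at 6 HAT was lower in both entries, by a ratio of 0.745 (0.601 to 0.919) for miR164a/b/f and 0.526 (0.280 to 0.939) for miR164d. In Fisher's exact test on reads, adjusted over all entries, this difference was called for miR164a/b/f and not for miR164d. Neither was past 2-fold, and their differences from 0 HAT were not detectable at this depth. miR164e had 5, 6, and 4 reads and miR164c 0, 2, and 1 reads, below what a ratio needs.

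The gene values of WT at the same time points, again from 1 library each, show the state of the plants. They were taken to come from the mRNA libraries, although the labels also list riboZ RNA-Seq libraries of WT at these times. Dip1 (Os02g0669100), a dehydration-induced gene used by the study as a marker of water deficit, had 92.6, 329, and 2583 FPKM at 0, 1, and 6 HAT. OsCUC1 (Os03g0327100, ONAC039), a NAC gene named after the CUC genes that miR164 targets in Arabidopsis, had 28.0, 35.5, and 223 FPKM. Its log2 change, after 0.1 FPKM was added, was 0.34 from 0 to 1 HAT and 2.99 from 0 to 6 HAT, while 22.8% and 51.9% of genes with at least 1 FPKM in 1 of the libraries changed at least 2-fold in either direction over these periods. OsCUC1 was the one gene of this kind that the sources used here pair with an identifier, and it was added outside the rule for named genes. The study lists it among transcription factor genes whose rise from 0 to 1 HAT was seen in sequencing and RT-PCR. A rise of OsCUC1 was thus known when it was picked, and nothing about miR164 is read from it. At 6 HAT miR164a/b/f was within counting error of 0 HAT (ratio 0.848, 0.680 to 1.05). The 3 time points with 1 library each allow no test of a relation between OsCUC1 and miR164. Whether miR164 targets OsCUC1 in rice was not tested.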

How the data were processed

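Small RNA was sequenced by the authors as 51-nt reads, adaptors were removed, and known rice miRNAs of miRBase were quantified with miRanalyzer. The deposited values are RPM, and the labels' processing notes name IRGSP-1.0 and CASAVA 1.8.2. The deposited FPKM values, taken to be those of WT mRNA, were made by the authors with Tophat and Cufflinks on IRGSP1.0, without read counts. Whole reads were recovered from the RPM step of each library (292 of 292 values per library). Entries were counted as past 2-fold when they had at least 10 reads in at least 1 of the 2 libraries. Ratios carry exact conditional binomial (Clopper-Pearson) 95% intervals, and 3 reads were used as the floor for a count of 0. With 1 library per time point, no test of time was possible. Alternatives were other scalings, read minimums, a 1.5-fold threshold, entries with equal reads counted once or each, and, added after the data were seen, Fisher's exact test on reads and at least 10 reads in both libraries. Members and lists were chosen with earlier results of these data known. Entries with at least 10 reads in 1 library were named, and others were given by their reads. Lists of target genes (GAMYB, OMTN, NF-YA, GRF) and leaf and root markers could not be matched to gene identifiers and were not analysed here, nor were lincRNA values, miRNA sequences, or positions. On simulated reads (292 entries, 6 over 0 HAT), 20 of 20 entries given a 4-fold change were called, as were 4 of 104 unchanged ones. The changed entries had at least 20 expected reads in both libraries, and reads were drawn with counting error alone. Changes near 2-fold or on fewer reads were not simulated. Python 3.11.15, numpy 2.4.6, pandas 2.3.3, scipy 1.17.1, and matplotlib 3.10.9 were used.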

Additional observations from a re-analysis of the deposited data

How the results depend on the processing

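Depth limits the minor entries, since a member with 10 reads has an interval of several-fold. With a minimum of 50 reads, the members past 2-fold numbered 0 from 0 to 1 HAT (1 as reported), 3 from 0 to 6 HAT (6 as reported, and these 3 are miR169 entries), and 0 from 1 to 6 HAT (3 as reported). With at least 1 read in both libraries as the sole condition, 2 members were past 2-fold from 0 to 1 HAT, 8 from 0 to 6 HAT, and 3 from 1 to 6 HAT. The 8 include miR169e and miR396e-3p, the latter with 1 read at 0 HAT. The count over all entries is not given for the 50-read and 1-read minimums, so those member counts have no share beside them. A 1.5-fold threshold gave 7 members from 0 to 1 HAT (6 higher, 1 lower), 8 from 0 to 6 HAT (6 higher, 2 lower), and 7 from 1 to 6 HAT (4 higher, 3 lower), beside 26, 36.6, and 35.7% of all entries tested. With at least 10 reads in both libraries, a condition chosen after seeing the data, the members past 2-fold numbered 1, 5, and 2. These are 5.26, 31.25, and 12.5% of the members read by that rule. From 0 to 6 HAT the rule leaves out miR169i.2, which had 9 reads at 6 HAT and lay below 0 HAT. Over all entries, 2.65% of 113, 13.6% of 103, and 14.2% of 106 were past 2-fold in either direction. Fisher's exact test on the reads, which compares libraries and not time points, was also set as a further condition. Then 0 of 20 members that met the read minimum were past 2-fold from 0 to 1 HAT, beside 2 of 127 entries in all. From 0 to 6 HAT 5 of 20 were (without miR169f.2), beside 16 of 123. From 1 to 6 HAT 2 of 21 were (without miR396f-3p), beside 14 of 126, so that the members' share was no higher there. Alone, that test (Benjamini-Hochberg adjusted) called 25 of 238 entries from 0 to 1 HAT and 50 of 233 from 0 to 6 HAT. From 1 to 6 HAT it called 54 of 237. Among them were 4 of 25, 9 of 26, and 11 of 25 members, of which 3, 6, and 5 were higher at the later time. Some entries whose single interval excluded 1 were not called against 0 HAT. These include miR396f, miR396g/h/i, and miR169n/o at 1 HAT, and miR169f.2 at 6 HAT. Scaling by the median ratio turned the log2 change of the miR396 sum from 0 to 6 HAT to -0.043, against 0.01 as reported, and gave -0.38 from 1 to 6 HAT. The alternatives on target genes were not run, as those genes were not matched. No paired analysis was possible because each time point had 1 library.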
